A study of Mus musculus with 2 samples.

Results

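The mitotic spindle and chromosome segregation genes described here are 45 genes taken by symbol from the 31055 listed features of a single-cell RNA sequencing series on irradiated mouse medulloblastoma, and each symbol matched 1 feature. The rule that lists them uses no measured value, though it was written with earlier results of these data known. The genes fall into 7 roles: entry into mitosis (9 genes), exit from mitosis (3), the chromosomal passenger complex (3), the kinetochore and its checkpoint (8), spindle assembly (12), the midzone and cytokinesis (5) and chromosome structure (5). Both libraries held tumour-derived cells of Math1-Cre;SmoM2fl/fl mice, in which Cre under Math1, a gene of the granule neuron lineage, switches on SmoM2, an active form of Smoothened that keeps Sonic hedgehog signalling on. 1 library was made after FLASH proton irradiation, which gives the dose at a very high rate, and 1 after standard proton irradiation. The sample labels state a dose of 5 Gy for both while the series' design text states 10 Gy, and the files do not settle which holds. Neither the interval between irradiation and harvest nor the number of mice in a library is given in the sources used here, and no unirradiated tumour was analysed here.

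A cell enters mitosis when CDK1 bound to cyclin B becomes active, helped by PLK1 and by the phosphatase CDC25C. Kinetochores then join chromosomes to spindle microtubules, a checkpoint holds anaphase until every chromosome is attached, and the anaphase-promoting complex with CDC20 starts the destruction of cyclin B and securin. Many of these genes are transcribed late in the cycle through the MuvB complex with B-MYB and FOXM1, which acts at CHR elements, and through NF-Y at CCAAT boxes. In the young cerebellum granule neuron progenitors divide under Sonic hedgehog and then leave the cycle as neurons, so RNA of these genes separates dividing from postmitotic cells of this lineage.

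The measurements were unique molecular identifier (UMI) counts, each standing for 1 captured RNA molecule. The FLASH library listed 14269 barcodes and the standard library 12867. With at least 500 genes and at most 10% mitochondrial UMIs required, 10366 FLASH cells with 58357503 UMIs (median 5329.5 per cell) and 8461 standard cells with 50212938 UMIs (median 5700) remained. The libraries shared 46 listed barcodes, 22 of them kept. The 45 genes took 322000 UMIs, or 0.552% of the total, in the FLASH library and 272067 UMIs, or 0.542%, in the standard library. There is 1 library per group, so no difference has a replicate check and none was tested. Levels are counts per 1000000 (CPM) of the UMIs summed over a class of cells, ratios are on the log2 scale after adding 0.5 count, and 95% intervals are exact and cover counting error only.

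Cells were clustered without the 45 genes and without 108 other genes of the pathway, and cycle stages were named from 28 S phase, 22 G2 and 21 M genes outside both lists. Early S-like cells numbered 566 in the FLASH library and 455 in the standard library, late S-like cells 760 and 520, G2-like cells 477 and 379, and M-like cells 675 and 515. Of the 2 progenitor-like clusters 1 had Hes1 and Atoh1 among its 10 leading genes, while the other was led by muscle genes such as Mylpf and Tnnc2. Cntn2, a gene of newborn granule neurons, was among the 10 leading genes of all 3 neuron-like clusters. The staging genes are cell cycle genes themselves, so a difference of the 45 genes between stages is a description of the stages and not a test.

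The summed level of the 45 genes was higher at each later stage in both libraries. It was 2771, 8455, 15723 and 17986 CPM in early S-, late S-, G2- and M-like cells of the FLASH library, and 2754, 8324, 16068 and 17554 CPM in those of the standard library. Progenitor-like cells had 1046 CPM in the FLASH library and 1012 CPM in the standard library, and neuron-like cells had 783 and 842 CPM. The progenitor-like value pools the cluster led by muscle genes, at 1288 CPM over both libraries, with the cluster that has Hes1 and Atoh1 among its leading genes, at 673 CPM, and neuron-like cells at 811 CPM lie between them. The sum of G2-like cells was 87.4% of that of M-like cells in the FLASH library and 91.5% in the standard library. Of the 45 genes, 42 were at least 2 times higher in M-like than in early S-like cells in both libraries, against 2.74% of the 9412 genes compared, and 1 was at least 2 times lower, against 3.57%. The median log2 ratio was 3.13 in the FLASH library and 3.11 in the standard library, and that of all genes compared was -0.08 in each. Between G2- and late S-like cells 33 genes were at least 1.5 times higher in G2 in both libraries (background 2.36%) and 1 was lower (background 4.54%).

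**Figure D1:**
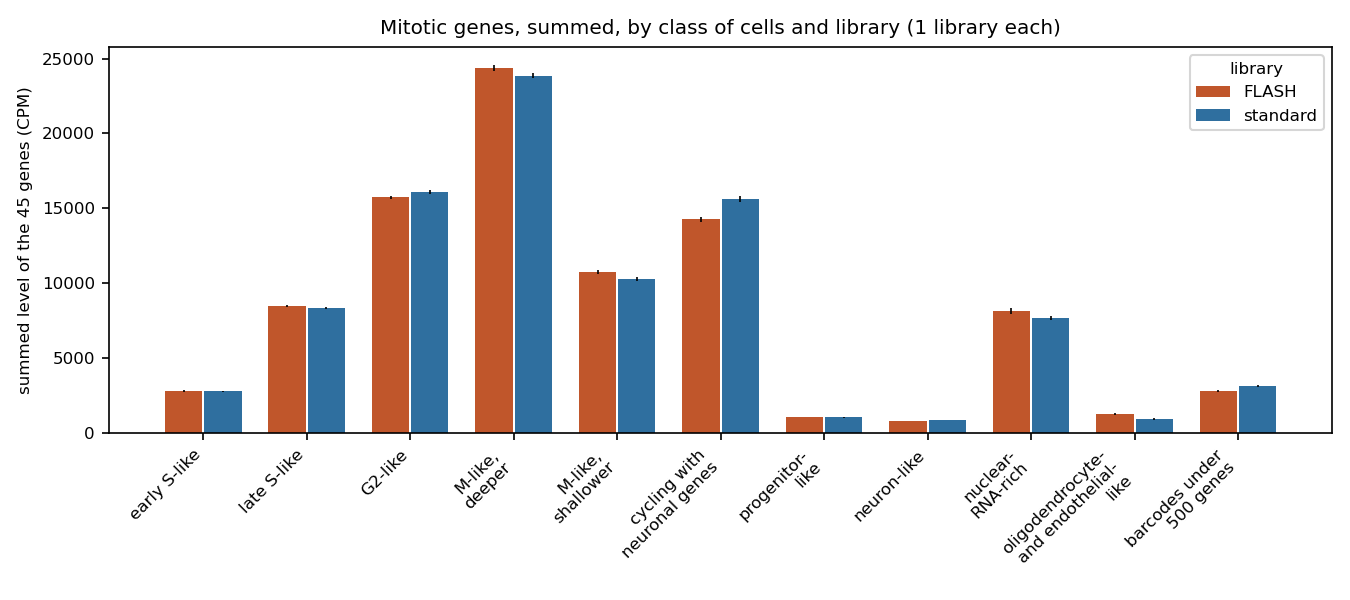
Summed level of the 45 genes in CPM (vertical axis) in each class of cells (horizontal axis), with 1 bar per library, FLASH left of standard. M-like cells are drawn as a deeper and a shallower cluster, by UMIs per cell. The deeper cluster stands at 24365 CPM in the FLASH and 23868 CPM in the standard library, and the shallower at 10728 and 10248 CPM. G2-like cells stand between them at 15723 and 16068 CPM, and neuron-like cells at 783 and 842 CPM.

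The genes with the steepest contrast between M and S encode a centromeric histone, an enzyme of mitotic exit and a cyclin. Cenpa, the histone H3 variant that marks centromeres, had 810 CPM in M-like and 13.5 CPM in early S-like cells of the FLASH library, and 799 and 10.4 CPM in those of the standard library. The log2 ratio was 5.89 (5.53 to 6.31) in the FLASH library and 6.24 (5.80 to 6.76) in the standard library. Ube2c, the ubiquitin-conjugating enzyme that works with the anaphase-promoting complex, followed with 5.91 (5.64 to 6.21) and 5.70 (5.43 to 5.99). Ccnb2, a B-type cyclin, had 5.65 (5.07 to 6.36) and 5.19 (4.66 to 5.84).

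At the other end stood 3 genes that were already present in S phase. Ncapg2, a subunit of condensin II, was lower in M-like than in early S-like cells, with 32.1 against 111 CPM in the FLASH library and 25.6 against 89.0 CPM in the standard library, and log2 ratios of -1.78 (-2.04 to -1.53) and -1.79 (-2.12 to -1.49). Hjurp, the chaperone that loads Cenpa onto centromeres, had nearly equal levels: 417 CPM in M-like and 372 CPM in early S-like cells of the FLASH library, and 388 and 399 CPM in those of the standard library. Its log2 ratio was 0.16 (0.07 to 0.26) in the FLASH library and -0.04 (-0.14 to 0.06) in the standard library. Cks1b, a small subunit that binds cyclin-dependent kinases, had 0.91 (0.79 to 1.02) and 0.77 (0.66 to 0.89). Ncapg2 was thus the only gene of the 45 with its highest level in late S-like cells, at 134 CPM in the FLASH library and 114 CPM in the standard library.

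The order of G2 and M was less settled than that of S and M. By the highest level among early S-, late S-, G2-, M-, progenitor- and neuron-like cells, 25 genes peaked in M-like cells in both libraries, 16 in G2-like cells and 1 in late S-like cells, while Cdca3, Birc5 and Kif20b peaked in M-like cells of the FLASH library and in G2-like cells of the standard library. The count of 25 depends on which cells are called M-like. It became 44 when probable doublets were removed or when at most 5% mitochondrial UMIs were allowed, each with new clusters, and ranged from 19 to 44 over all alternatives. Of the 45 genes, 10 were at least 1.5 times higher in M-like than in G2-like cells in both libraries (background 2.82%) and 3 were lower (background 3.62%).

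Cdc20, the activator of the anaphase-promoting complex, had the highest M over G2 ratio. It had 469 CPM in M-like and 192 CPM in G2-like cells of the FLASH library, and 484 and 212 CPM in those of the standard library, with log2 ratios of 1.29 (1.18 to 1.40) and 1.19 (1.08 to 1.31). Dlgap5, which stabilises spindle microtubules near chromosomes, had 1.16 (1.02 to 1.31) and 1.04 (0.89 to 1.19). Cdc25c, the phosphatase that activates CDK1, had 1.11 (0.81 to 1.42) and 1.04 (0.72 to 1.38). The 3 genes on the low side were Ncapg2 at -1.13 (-1.41 to -0.86) and -1.12 (-1.46 to -0.80), Top2a at -0.70 (-0.75 to -0.65) and -0.84 (-0.90 to -0.79), and Aurkb at -0.64 (-0.79 to -0.49) and -0.79 (-0.95 to -0.63), in the FLASH and the standard library in turn. Top2a encodes the topoisomerase that untangles sister DNA, and Aurkb the kinase of the chromosomal passenger complex.

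M-like cells were made of 2 clusters, and most of the genes differed between them. The shallower cluster held 422 FLASH and 318 standard cells, with medians of 5763.5 and 6587.5 UMIs, and the deeper cluster held 253 and 197 cells, with medians of 10954 and 12608 UMIs. Over both libraries their M staging genes lay 1.36 and 2.39 log2 units above non-cycling cells of the lineage, and those of G2-like cells 1.64. The summed level of the 45 genes was 10728 CPM in shallower and 24365 CPM in deeper M-like cells of the FLASH library, and 10248 and 23868 CPM in those of the standard library. Of the 45 genes, 34 were at least 1.5 times lower in the shallower than in the deeper cells in both libraries (background 6.96%), and 0 were higher (background 1.53%). Depth moves with this contrast, since the cells with fewer UMIs have the lower share of them in these genes, and its part was not tested.

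Against G2-like cells most of the 45 genes were higher in the deeper M-like cells, some of them by little. In both libraries 41 of the 45 had a ratio above 0, 19 were at least 1.5 times higher (background 2.21%) and 1, Ncapg2, was lower (background 2.18%). The median log2 ratio over the 45 genes was 0.61 in the FLASH library and 0.49 in the standard library. That of all genes compared was 0.02 and 0.03. For Foxm1, Gtse1, Bub1, Ttk and Smc4 the ratio was above 0, but its interval held 0 in both libraries. Among 5 steps (early S, late S, G2, deeper M and shallower M), 41 genes peaked in the deeper M-like cells of both libraries. The exceptions were Ncapg2 in late S, Ndc80, a kinetochore subunit that binds microtubules, in G2, and Aurkb and Top2a, which peaked in deeper M-like cells of the FLASH library and in G2-like cells of the standard library.

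The shallower M-like cells stood above G2-like cells for a few genes and below for more. Compared with G2-like cells, 5 genes were at least 1.5 times higher in them in both libraries (background 4.3%), namely Ccnb2, Cdc25c, Cdc20, Cenpa and Dlgap5, and 20 were lower (background 8.86%). Ccnb2 was level between the 2 M-like clusters, with 271 CPM in shallower and 272 CPM in deeper cells of the FLASH library and 265 CPM in both of the standard library, against 133 CPM in G2-like cells of each library. Cenpa had 719 and 890 CPM in shallower and deeper cells of the FLASH library, and 713 and 873 CPM in those of the standard library. Top2a was far apart, at 201 CPM in shallower and 1655 CPM in deeper cells of the FLASH library, and 170 and 1550 CPM in those of the standard library. Prc1, the bundler of midzone microtubules, had 151 CPM in shallower and 1060 CPM in deeper cells of the FLASH library and 123 and 1022 CPM in those of the standard library. Aurkb had 21.4 CPM in shallower and 214 CPM in deeper cells of the FLASH library and 25.7 and 202 CPM in those of the standard library.

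**Figure D2:**
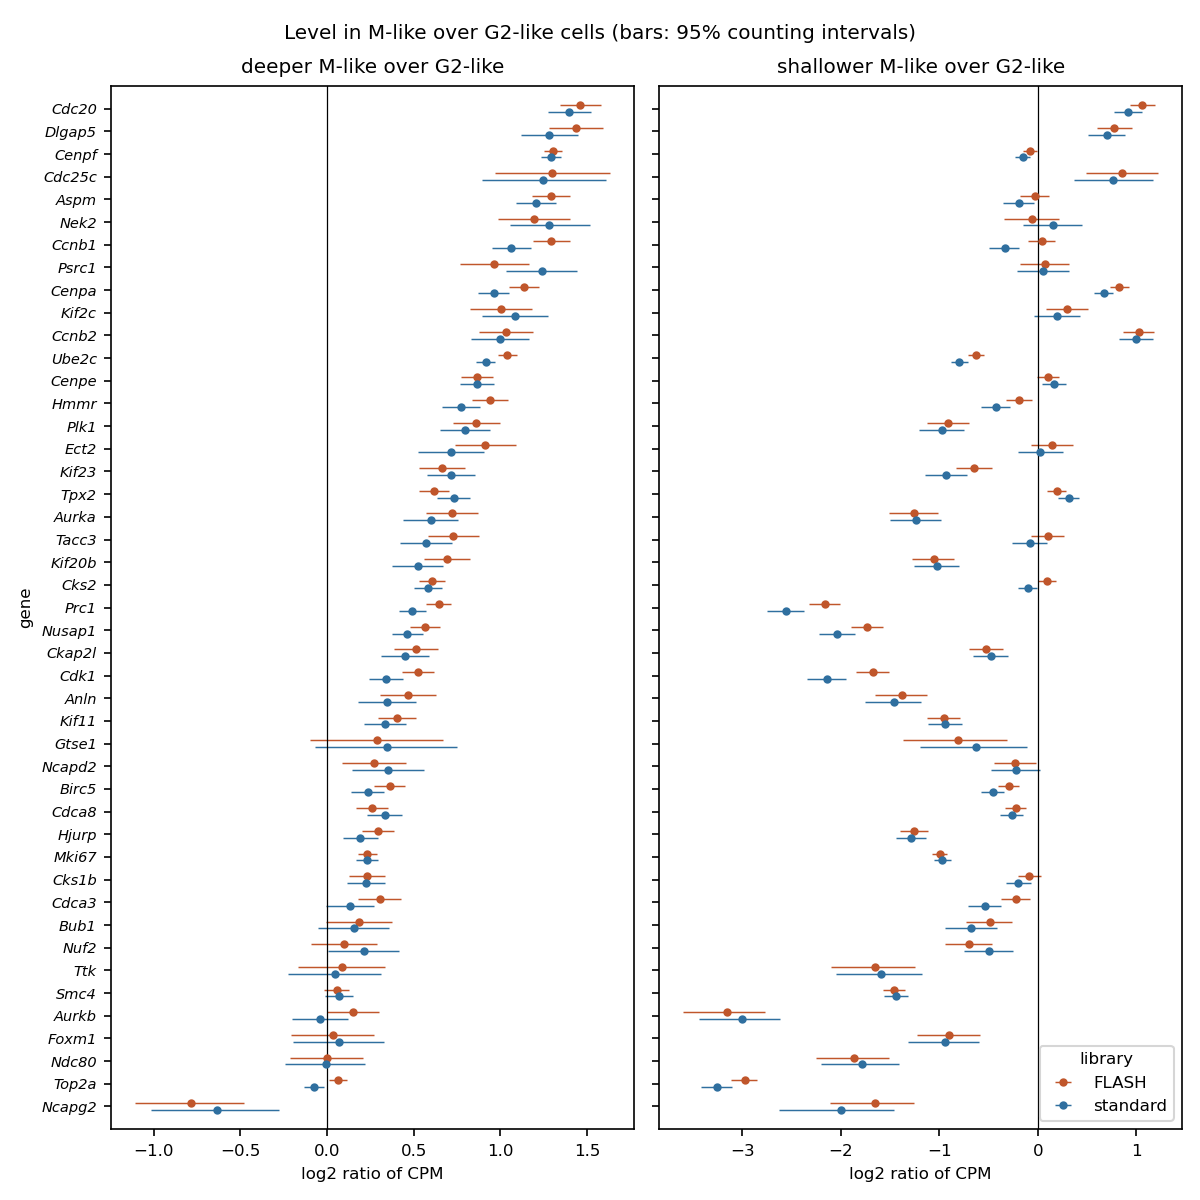
Log2 ratio of CPM (horizontal axis) of deeper and of shallower M-like cells over G2-like cells for each of the 45 genes (vertical axis), with points for the FLASH and standard libraries and bars for 95% counting intervals. In deeper cells 41 genes lie above 0 in both libraries, and in shallower cells 10 do and 31 lie below 0.

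The 9 genes of mitotic entry summed to 432, 982, 2151 and 2722 CPM in early S-, late S-, G2- and M-like cells of the FLASH library and to 453, 1003, 2319 and 2704 CPM in the standard library. Cks2, a partner of CDK1 and the member of this role with most UMIs over both libraries, had 63.5, 211, 622 and 814 CPM over the 4 stages in the FLASH library and 59.6, 221, 676 and 835 CPM in the standard library. In further classes Cks2 had 37.5 CPM in progenitor-like, 32.6 in neuron-like, 47.6 in myeloid-like and 77.0 in nuclear-RNA-rich cells of the FLASH library, and 45.5, 29.8, 55.1 and 80.1 CPM in those of the standard library. Cdk1 itself, the kinase, had 627 CPM in deeper M-like and 268 CPM in late S-like cells of the FLASH library, and 623 and 266 CPM in those of the standard library. Its partner Ccnb1, cyclin B1, was further apart, with 634 CPM in deeper M-like and 73.3 CPM in late S-like cells of the FLASH library and 617 and 77.0 CPM in those of the standard library. Plk1, the polo-like kinase, had 326 and 46.0 CPM in those cells of the FLASH library and 323 and 48.9 CPM in those of the standard library. Foxm1, the transcription factor, had 69.4, 81.6, 83.5 and 43.6 CPM in late S-, G2-, deeper M- and shallower M-like cells of the FLASH library and 63.2, 78.1, 81.8 and 40.4 CPM in those of the standard library. Gtse1, a microtubule-binding protein of G2 and mitosis, had 35.9 CPM in deeper M-like and 29.4 CPM in G2-like cells of the FLASH library and 36.6 and 28.9 CPM in those of the standard library.

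Among the genes of mitotic exit, Ube2c reached 25.1, 224, 1087 and 1519 CPM over early S-, late S-, G2- and M-like cells of the FLASH library and 29.7, 217, 1210 and 1548 CPM in the standard library. In progenitor-like, neuron-like, myeloid-like and nuclear-RNA-rich cells it had 34.2, 32.2, 49.97 and 118 CPM in the FLASH library and 28.1, 36.9, 40.3 and 96.6 CPM in the standard library. Its log2 ratio was 2.28 in the FLASH library and 2.48 in the standard library between G2 and late S, and 3.15 and 2.87 between late S and early S. Birc5, which encodes survivin of the passenger complex, was present earlier, with 81.3, 329, 490 and 523 CPM over the 4 stages in the FLASH library and 75.2, 340, 533 and 516 CPM in the standard library. In progenitor-like, neuron-like, myeloid-like and nuclear-RNA-rich cells Birc5 had 19.8, 17.4, 54.2 and 70.6 CPM in the FLASH library and 18.6, 16.2, 25.9 and 80.9 CPM in the standard library. Cdca8, borealin of the same complex, had 577 CPM in deeper M-like and 483 CPM in G2-like cells of the FLASH library and 589 and 468 CPM in those of the standard library. Cdca3, a trigger of mitotic entry that is itself degraded at exit, had 319 and 259 CPM in those cells of the FLASH library and 289 and 264 CPM in those of the standard library.

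Cenpf, a large protein of the outer kinetochore, and the member of its role with most UMIs, had 82.3, 379, 1009 and 1772 CPM over the 4 stages in the FLASH library and 91.4, 375, 971 and 1677 CPM in the standard library. In progenitor-like, neuron-like, myeloid-like and nuclear-RNA-rich cells it had 59.0, 36.02, 60.04 and 624 CPM in the FLASH library and 56.2, 42.3, 47.9 and 567 CPM in the standard library. Cenpe, a kinetochore motor, had 715 CPM in deeper M-like and 392 CPM in G2-like cells of the FLASH library and 711 and 391 CPM in those of the standard library. The core and checkpoint genes were flatter. Ndc80 had 105 CPM in both deeper M- and G2-like cells of the FLASH library, and 101 and 102 CPM in those of the standard library. Nuf2, its partner, had 131 and 123 CPM in deeper M- and G2-like cells of the FLASH library and 139 and 120 CPM in those of the standard library. The checkpoint kinases were close as well: Bub1 had 138 and 122 CPM in deeper M- and G2-like cells of the FLASH library and 133 and 119 CPM in those of the standard library. Ttk, the kinase that starts the checkpoint, had 76.00 and 71.6 CPM in the FLASH library and 77.3 and 74.96 CPM in the standard library.

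Tpx2, which activates Aurora A on the spindle, had 51.9, 266, 492 and 664 CPM over the 4 stages in the FLASH library and 39.3, 254, 455 and 667 CPM in the standard library. In progenitor-like, neuron-like, myeloid-like and nuclear-RNA-rich cells Tpx2 had 21.1, 21.1, 28.7 and 169 CPM in the FLASH library and 21.2, 16.7, 26.3 and 165 CPM in the standard library. Genes of this role split by how far M stood above G2. Dlgap5, Nek2 (a centrosome kinase), Aspm (a protein of spindle poles), Psrc1 (a regulator of microtubule ends) and Kif2c (a motor that takes microtubules apart) had deeper M over G2 log2 ratios of 0.96 to 1.44 in the FLASH library and 1.08 to 1.28 in the standard library. Aurka, the kinase of spindle poles, had 0.72 and 0.60, Hmmr, a spindle pole protein, 0.94 and 0.77, and Tacc3, which crosslinks spindle fibres, 0.73 and 0.57. Nusap1, Ckap2l and Kif11, of which Kif11 is the motor that pushes spindle poles apart, lay between 0.40 and 0.57 in the FLASH library and between 0.34 and 0.46 in the standard library. Nusap1, which bundles spindle microtubules, had 146 CPM in shallower and 718 CPM in deeper M-like cells of the FLASH library, and 132 and 749 CPM in those of the standard library.

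Prc1 had 55.7, 250, 679 and 635 CPM over the 4 stages in the FLASH library and 49.4, 253, 727 and 605 CPM in the standard library. In progenitor-like, neuron-like, myeloid-like and nuclear-RNA-rich cells it had 13.6, 14.3, 29.4 and 199 CPM in the FLASH library and 15.9, 16.3, 28.4 and 196 CPM in the standard library. Kif23, Kif20b, Ect2 and Anln, which help to build the midzone and the cleavage furrow, had 200 to 321 CPM in deeper M-like cells of the FLASH library and 185 to 334 CPM in the standard library. Top2a had 360, 1289, 1584 and 975 CPM over the 4 stages in the FLASH library and 355, 1246, 1633 and 910 CPM in the standard library. In progenitor-like, neuron-like, myeloid-like and nuclear-RNA-rich cells it had 41.2, 44.6, 73.6 and 923 CPM in the FLASH library and 40.1, 45.4, 88.2 and 761 CPM in the standard library. Mki67, the coat protein of mitotic chromosomes, had 1652 CPM in deeper M-like and 1051 CPM in late S-like cells of the FLASH library and 1455 and 976 CPM in those of the standard library. Smc4, a condensin ATPase, had 916 and 585 CPM in those cells of the FLASH library and 878 and 554 CPM in those of the standard library, and Ncapd2, a condensin I subunit, had 147 and 97.1 CPM and 137 and 103 CPM. The chromosome genes thus had more of their mitotic level in late S than Ccnb1 or Plk1 had. A high level in late S was not particular to them. As percent of each gene's highest class, the median of chromosome structure genes in late S-like cells was 76.3% in the FLASH and 78.7% in the standard library. It was 68.8% and 68.2% for kinetochore and checkpoint genes, and 62.9% and 63.8% for the passenger complex. The remaining roles had medians of at most 40.6% and 45.4%.

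**Figure D3:**
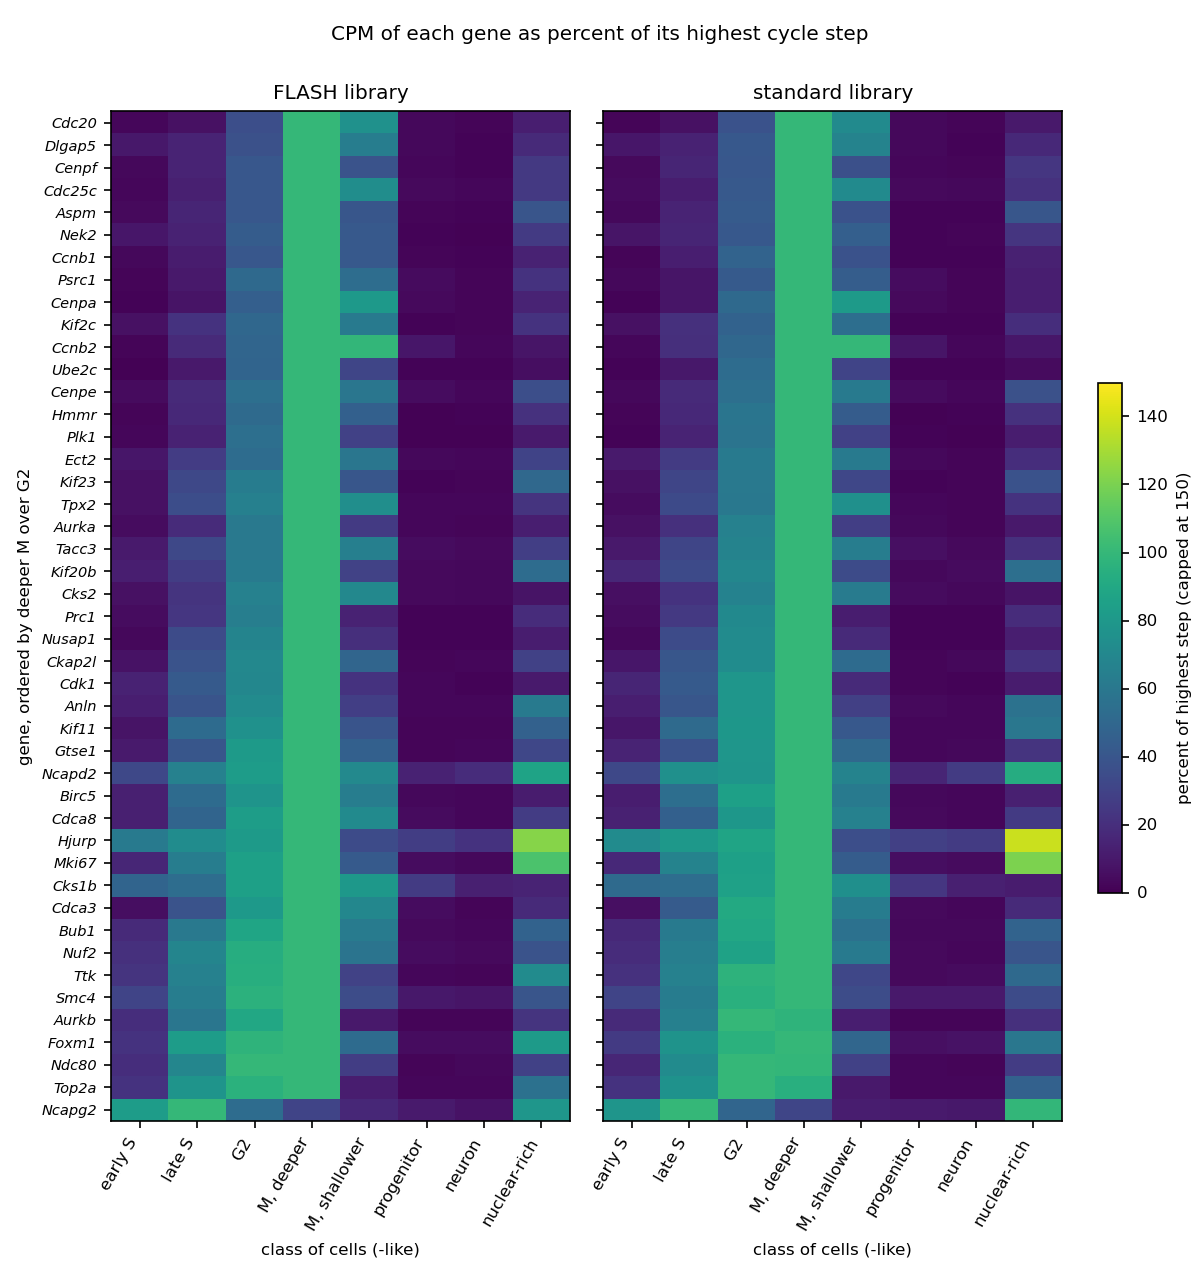
Level of each of the 45 genes (vertical axis, ordered by deeper M over G2) in each class of cells (horizontal axis), as percent of the gene's CPM at its highest cycle step, in the FLASH library (left) and the standard library (right), with colour capped at 150. Ncapg2 and Hjurp keep colour in early S-like cells, while Cenpa, Ube2c and Ccnb2 do not.

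For other genes of the pathway the same M over early S ratio was read. Of 107 genes compared from 8 further lists, 30 were at least 2 times higher in M-like than in early S-like cells in both libraries (background 2.74%) and 9 were lower (background 3.57%), and their median log2 ratio was 0.17 in the FLASH library and 0.21 in the standard library. The lists of passenger complex and motors (8 of 10 higher) and of kinetochore and checkpoint (11 of 25 higher) held most of them, whereas 2 of 16 genes of the anaphase-promoting complex and 0 of 6 of mitotic entry control were higher. The leading motors were Kif20a (log2 ratio 3.31 in the FLASH library and 3.28 in the standard library) and Kif14 (3.11 and 3.10), and the leading kinetochore genes were the checkpoint kinase Bub1b (3.05 and 3.10) and Cenpl (2.89 and 2.81). For cytokinesis Cep55 (2.96 and 3.06) and Racgap1 (2.25 and 2.14) led, and for the centrosome Ccnf (2.23 and 2.50) and Numa1 (0.45 and 0.39). The anaphase-promoting complex was led by its activator Fzr1 (2.17 and 2.03) and its enzyme Ube2s (2.02 and 1.93), and cohesin and separase by Espl1 (2.04 and 1.77) and Rad21 (1.69 and 1.69). Mastl (1.11 and 0.80) and Ppp2r2a (0.22 and 0.10) led mitotic entry control, and E2f5 (1.61 and 1.06) and Lin37 (0.67 and 0.46) the regulators of the MuvB and E2F families. Most of these regulators did not rise: 1 of 19 was at least 2 times higher and 6 were lower, with medians of -0.53 and -0.40. Mybl2, the gene of B-MYB, had -2.92 and -3.73, at 6.05 and 3.09 CPM in M-like cells.

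Promoters of the genes were read from RefSeq on the GRCm38.p6 build, from 250 bases before to 50 after the start, and 39 of the 45 genes matched. The words searched on both strands were TTTGAA or TTCGAA for the CHR element, CCAAT for the CCAAT box, and TTCCCGC or TTGGCGC as E2F-type sites. A CHR word was found in 30 of the 39 (76.9%), against 21.7% of 27025 genes with a promoter in the table and 16.2% of the 9998 of them that had at least 100 UMIs in these data, called detected here. A CCAAT word was also found in 30 (76.9%), against 41.1% and 43.2%. Both words were found in 25 genes (64.1%), against 8.61% and 6.74%. An E2F-type word was found in 6 genes (15.4%), against 7.79% of all genes and 14.5% of detected genes, so its share was near that of detected genes. A CHR word within 50 bases of the start was found in 27 genes, and in 5.51% of all 32851 promoters, where a gene can have several. Birc5, Nuf2, Tacc3 and Nusap1 held neither a CHR nor a CCAAT word in this window. The median deeper M over G2 log2 ratio was 0.64 in the FLASH library and 0.49 in the standard library for the 25 genes with both words, 0.47 and 0.35 for the 5 with CHR alone, 0.87 and 0.86 for the 5 with CCAAT alone, and 0.46 and 0.35 for the 4 with neither. A match describes letters and shows no binding.

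The promoters below are those of genes that mark the ends of the order described above: Cdc20, Ube2c, Ccnb2 and Cenpa with high M over S or M over G2 ratios, Top2a, which was low in the shallower M-like cells, Hjurp and Ncapg2, which were present in S phase, and Birc5, which holds neither word. Each runs 5′ to 3′ on the strand of the gene, and capitals mark CHR and CCAAT words on either strand. In Ube2c a pair of CCAAT words on opposite strands overlaps in CCAATTGG, and the promoter of Top2a holds 4 CHR and 6 CCAAT words. Their positions are chr4:118437294-118437593 (minus strand) for Cdc20, chr2:164769679-164769978 (plus) for Ube2c, chr9:70421505-70421804 (minus) for Ccnb2, chr5:30666636-30666935 (plus) for Cenpa, chr11:99024140-99024439 (minus) for Top2a, chr1:88277530-88277829 (minus) for Hjurp, chr12:116405186-116405485 (plus) for Ncapg2 and chr11:117848987-117849286 (plus) for Birc5.
Cdc20: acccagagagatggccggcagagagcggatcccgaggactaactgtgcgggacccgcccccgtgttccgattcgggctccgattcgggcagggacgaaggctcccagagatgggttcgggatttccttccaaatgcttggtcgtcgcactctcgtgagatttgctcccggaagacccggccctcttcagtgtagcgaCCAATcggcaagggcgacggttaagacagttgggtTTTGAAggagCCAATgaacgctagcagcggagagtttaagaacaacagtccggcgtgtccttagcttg
Ube2c: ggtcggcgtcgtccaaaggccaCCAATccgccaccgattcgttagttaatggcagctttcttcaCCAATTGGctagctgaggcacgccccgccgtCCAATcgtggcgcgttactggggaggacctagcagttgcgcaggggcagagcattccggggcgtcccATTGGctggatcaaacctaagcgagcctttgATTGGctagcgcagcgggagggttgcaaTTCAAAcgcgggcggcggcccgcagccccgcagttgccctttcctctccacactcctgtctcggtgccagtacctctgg
Ccnb2: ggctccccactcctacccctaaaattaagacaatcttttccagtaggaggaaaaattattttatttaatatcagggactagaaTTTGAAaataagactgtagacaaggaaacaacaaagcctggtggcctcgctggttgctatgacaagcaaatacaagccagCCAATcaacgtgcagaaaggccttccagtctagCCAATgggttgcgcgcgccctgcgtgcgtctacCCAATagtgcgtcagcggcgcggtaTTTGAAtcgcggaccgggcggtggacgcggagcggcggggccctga
Cenpa: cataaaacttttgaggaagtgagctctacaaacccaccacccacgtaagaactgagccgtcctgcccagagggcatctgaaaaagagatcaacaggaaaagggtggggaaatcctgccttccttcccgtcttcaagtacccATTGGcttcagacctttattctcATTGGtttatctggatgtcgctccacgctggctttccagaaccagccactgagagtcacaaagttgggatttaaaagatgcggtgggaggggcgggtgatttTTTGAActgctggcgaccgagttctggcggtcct
Top2a: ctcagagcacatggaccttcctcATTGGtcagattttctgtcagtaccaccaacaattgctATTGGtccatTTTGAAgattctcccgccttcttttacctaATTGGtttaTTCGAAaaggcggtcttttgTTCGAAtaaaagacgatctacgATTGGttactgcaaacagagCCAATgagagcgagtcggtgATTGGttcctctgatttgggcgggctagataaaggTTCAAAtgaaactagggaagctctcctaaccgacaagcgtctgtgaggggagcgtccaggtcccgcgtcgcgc
Hjurp: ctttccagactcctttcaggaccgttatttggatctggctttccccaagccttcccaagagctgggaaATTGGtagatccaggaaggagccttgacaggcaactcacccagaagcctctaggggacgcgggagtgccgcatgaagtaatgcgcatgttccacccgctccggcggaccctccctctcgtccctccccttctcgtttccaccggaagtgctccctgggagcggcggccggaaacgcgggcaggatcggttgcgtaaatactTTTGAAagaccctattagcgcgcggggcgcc
Ncapg2: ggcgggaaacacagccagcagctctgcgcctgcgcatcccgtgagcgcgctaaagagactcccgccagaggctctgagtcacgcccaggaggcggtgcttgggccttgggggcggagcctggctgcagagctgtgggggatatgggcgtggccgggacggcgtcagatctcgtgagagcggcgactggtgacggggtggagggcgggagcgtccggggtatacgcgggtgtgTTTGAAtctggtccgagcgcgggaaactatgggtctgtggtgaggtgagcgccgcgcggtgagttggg
Birc5: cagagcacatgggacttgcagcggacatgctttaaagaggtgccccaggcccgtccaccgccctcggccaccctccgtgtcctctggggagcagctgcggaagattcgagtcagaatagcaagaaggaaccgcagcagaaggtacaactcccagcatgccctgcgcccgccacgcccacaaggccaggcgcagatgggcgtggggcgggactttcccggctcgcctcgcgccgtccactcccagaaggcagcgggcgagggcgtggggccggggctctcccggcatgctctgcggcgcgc

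Neuron-like cells, which express genes of neurons that have left the cycle, kept a low level of the 45 genes. The sum was 783 CPM in the FLASH library and 842 CPM in the standard library, or 4.35% and 4.79% of the level in M-like cells. Myelinating oligodendrocyte-like and endothelial-like cells together (131 FLASH and 107 standard cells) were taken as a reference and are called the non-dividing types here. Whether some endothelial-like cells of these tumours divide was not tested. The non-dividing types had 1240 and 890 CPM, and myeloid-like cells had 1122 and 979 CPM. Barcodes with fewer than 500 genes, which can hold free RNA, had 2805 and 3118 CPM. The parts of the non-dividing types did not lie on one side of the neuronal sum: myelinating oligodendrocyte-like cells had 1444 CPM in the FLASH library and 665 CPM in the standard library, and endothelial-like cells 717 and 1664 CPM. Without Anln, anillin of the cleavage furrow, which is also known from myelinating oligodendrocytes, the sum was 778 CPM in neuron-like cells and 1141 CPM in the non-dividing types of the FLASH library, but 836 and 763 CPM in those of the standard library. The order of the neuronal sum and that of the types taken as non-dividing thus depended on the type, the library and Anln. Shares of cells are read against those types as background. After thinning to 2000 UMIs per cell, at least 1 UMI of the 45 genes was found in 67.4% (65.3 to 69.4) of neuron-like cells of the FLASH library and 69.7% (67.5 to 71.9) of the standard library, against 59.2% (47.3 to 70.4) and 54.2% (42.0 to 66.0) of the non-dividing types, 55.0% and 57.7% of myeloid-like cells and 99.7% and 99.4% of M-like cells. Unthinned, the shares were 88.1% and 92.3% of neuron-like cells at medians of 4681 and 5332.5 UMIs and 76.3% and 82.2% of the non-dividing types at 3241 and 3849 UMIs. Thinning left out 143 and 120 neuron-like cells, 55 and 35 cells of the non-dividing types, 57 and 63 myeloid-like cells and 11 and 4 M-like cells.

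Hjurp gave more of the neuronal remainder than any other of the 45 genes, and it did so in progenitor-like cells too, with 15.8% of their UMIs of the 45 genes in the FLASH library and 15.5% in the standard library. In neuron-like cells Hjurp had 132 CPM in the FLASH library and 143 CPM in the standard library, which was 16.8% and 17.0% of the UMIs of the 45 genes there, against 64.3 and 76.8 CPM in the non-dividing types and 51.1 and 56.4 CPM in myeloid-like cells. After thinning, 21.5% (19.8 to 23.4) and 24.7% (22.6 to 26.8) of neuron-like cells held a Hjurp UMI, against 18.4% (10.5 to 29.0) and 13.9% (6.87 to 24.1) of the non-dividing types and 7.77% and 10.2% of myeloid-like cells. Smc4 gave the next 10.2% and 10.5% of these UMIs. Cks1b, Mki67 and Top2a gave 5.40% to 7.44% each. Of 36 genes with enough UMIs, 2 were at least 1.5 times higher in neuron-like cells than in the non-dividing types in both libraries, Hjurp and Ncapd2 (background 22.7%), and 8 were lower (background 18%). The log2 ratio was 1.02 (0.61 to 1.49) and 0.89 (0.51 to 1.32) for Hjurp and 1.44 (0.47 to 2.86) and 0.64 (-0.04 to 1.502) for Ncapd2. Without Hjurp, Smc4, Cks1b, Ncapd2 and Ncapg2 the other 40 genes summed to 474 and 502 CPM in neuron-like cells, against 1064 and 675 CPM in the non-dividing types and 921 and 795 CPM in myeloid-like cells. These 5 include the genes with the highest neuronal ratios in these data, so a lower neuronal sum follows in part from the choice. With Anln left out as well, neuron-like cells had 469 CPM in the FLASH library and 496 CPM in the standard library. The non-dividing types then had 965 and 547 CPM.

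Measured against M-like cells, the genes with the highest neuronal ratio were Ncapg2 (log2 ratio -1.68 in the FLASH library and -1.21 in the standard library), Hjurp (-1.66 and -1.44), Ncapd2 (-2.16 and -1.70) and Cks1b (-2.81 and -2.77). Plk1, Dlgap5 and Nek2 were the lowest, at -5.92 and -6.102, -5.85 and -5.67, and -6.08 and -5.35. Anln had 5.51 CPM in neuron-like cells and 99.3 CPM in the non-dividing types of the FLASH library, and 5.83 and 127 CPM in those of the standard library. With probable doublets removed and new clusters made, the neuronal sum was 2.50% of the M-like level. The M-like class then held 292 FLASH and 233 standard cells, in place of 675 and 515. With doublets kept, the neuronal sum was 3.36% of the level in deeper M-like cells alone. Scrublet scores marked 8.52% and 6.44% of the neuron-like cells. The value without doublets thus mixes their removal with a changed M-like class. The part of free RNA and of doublets in this remainder was not tested.

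Cycling cells that carried neuronal genes formed a cluster of 200 FLASH and 127 standard cells. Their summed level was 14263 CPM in the FLASH library and 15621 CPM in the standard library, or 79.3% and 89.0% of that in M-like cells. Per gene the level ranged from 38.6% to 107% of the highest stage in the FLASH library and from 40.2% to 119% in the standard library. Scrublet scores marked 46.0% and 40.9% of these cells as probable doublets, against 8.30% and 6.77% of all kept cells, and the part of doublets in this cluster was not tested.

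Nuclear-RNA-rich cells, led by nuclear long RNAs such as Kcnq1ot1 and Miat, held the 45 genes at 44.0% (43.3 to 44.7) of the M-like level over both libraries. The class had 330 FLASH and 513 standard cells, medians of 2060.5 and 2273 UMIs, ribosomal shares of 6.96% and 5.96% against 16.3% in M-like cells of each library, and median mitochondrial shares of 7.16% and 7.02% against 3.14% and 2.97%. The sums were 8132 CPM in the FLASH library and 7653 CPM in the standard library. Of the 45 genes, 34 were at least 1.5 times lower than in M-like cells in both libraries (background 18.6%) and 2 were higher, Ncapg2 and Hjurp (background 35.2%). The log2 ratios were 1.72 (1.31 to 2.10) and 2.14 (1.79 to 2.51) for Ncapg2, 0.83 (0.69 to 0.96) and 0.98 (0.86 to 1.09) for Hjurp, 0.56 (0.47 to 0.64) and 0.71 (0.64 to 0.78) for Mki67, and 0.02 (-0.30 to 0.32) and 0.13 (-0.13 to 0.38) for Ncapd2. Mki67 alone gave 21.9% and 22.9% of the UMIs of the 45 genes in this class, with 1780 CPM in the FLASH library and 1756 CPM in the standard library. At the low end Ube2c had -3.68 (-3.998 to -3.39) and -3.997 (-4.27 to -3.75), Ccnb2 -3.52 and -3.45, and Cks2 -3.39 and -3.37.

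The class was not uniform, and 1 of its 4 clusters had the 45 genes near the M-like level. That cluster, whose G2 staging genes lay 1.99 log2 units above non-cycling cells of the lineage, had 75 FLASH and 109 standard cells and 17480.5 and 16371 CPM of the 45 genes, or 97.2% and 93.3% of the M-like level. The 3 others had 2086 to 6719 CPM in the FLASH library and 2558 to 7817 CPM in the standard library. Their G2 staging genes lay 0.19, 0.60 and 1.31 log2 units above the same non-cycling cells, against 1.27 in shallower M-like cells. The cluster at 1.31 was the one with 6719 and 7817 CPM. Only the cluster at 1.99 is called dividing here, and whether the others hold dividing cells was not tested. Set against G2- and M-like cells together, 11 genes were at least 1.5 times higher in the dividing nuclear-RNA-rich cells in both libraries (background 34.1%) and 15 were lower (background 17.4%). Higher were Foxm1, Ttk, Hjurp, Aspm, Kif11, Kif23, Kif20b, Anln, Ncapd2, Ncapg2 and Mki67, and among the lower were Cks1b, Cks2, Ube2c, Ccnb2, Cdc20, Birc5, Cdk1 and Aurka. For Mki67 the ratio was 1.66 in the FLASH library and 1.83 in the standard library, for Hjurp 1.52 and 1.70, and for Ncapg2 1.83 and 2.71. For Cks1b it was -3.55 and -3.13, for Cks2 -3.11 and -2.84, and for Ube2c -2.47 and -3.02.

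These ratios went with transcript length. Genes with short transcripts leaned low, but some with longer transcripts were low as well. The 15 members with the shortest longest coding transcript (692 to 2405 bases) had a median ratio of -1.25 in the FLASH library and -1.38 in the standard library. The 15 with the longest (4316 to 11130 bases) had 0.81 and 0.73. Across the 45 genes the ratio correlated with log2 transcript length with Pearson's r of 0.69 and 0.68 and Spearman's rho of 0.67 and 0.70. The same correlation over 9242 genes with at least 100 UMIs was 0.62 and 0.66 (Pearson) and 0.62 and 0.67 (Spearman), so it was not particular to the 45. These are correlations across genes within 1 pair of cell groups, and genes are not independent replicates. Of the 15 longest, 11 lay above 0 in each library. The others were Cdk1 (4375 bases), with -1.64 and -1.74, Tpx2 (4365 bases), with -0.85 and -0.93, Smc4 (4316 bases), with -0.19 and -0.31, and Cenpf, the longest of the 45 (11130 bases), with -0.19 and -0.22.

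**Figure D4:**
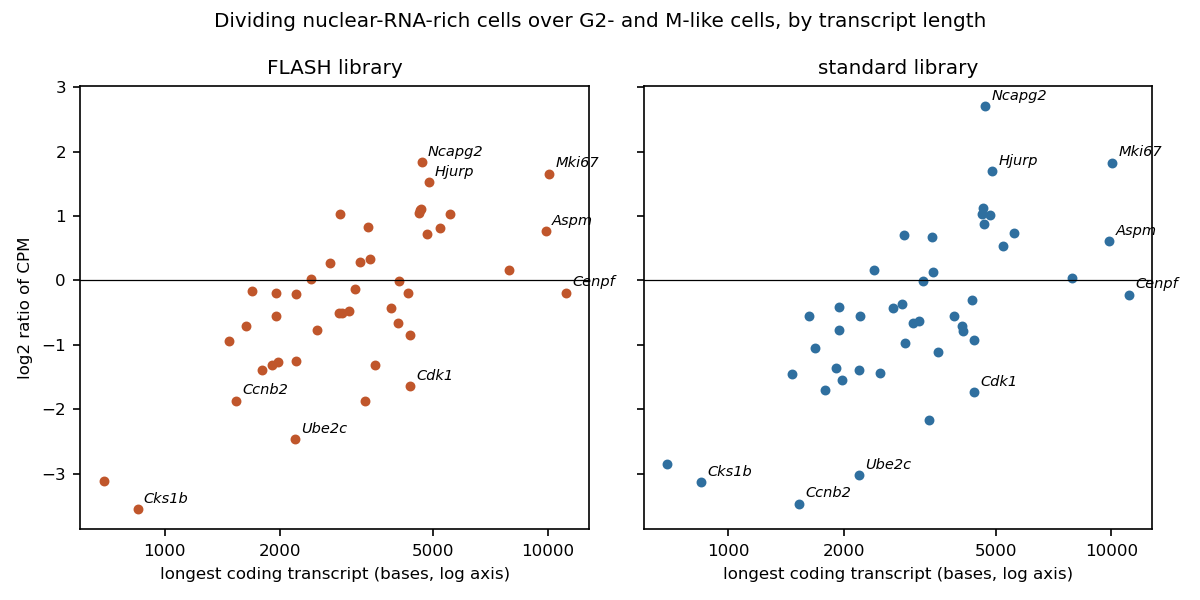
Log2 ratio of CPM of dividing nuclear-RNA-rich cells over G2- and M-like cells (vertical axis) against the length of the longest coding transcript in bases on a log axis (horizontal axis), 1 point per gene, in the FLASH library (left) and the standard library (right). Cks2 and Cks1b sit low at the short end, and Mki67 sits high at the long end.

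A cluster of shallow barcodes showed the opposite lean. It held 541 FLASH and 480 standard cells at medians of 1764 and 1667 UMIs, had G2 staging genes 1.78 log2 units above non-cycling cells of the lineage, and stayed without a name because of its depth. Its 45 genes summed to 9859 CPM in the FLASH library and 10066 CPM in the standard library. Compared with G2- and M-like cells, 0 genes were at least 1.5 times higher in both libraries (background 1.4%) and 26 were lower (background 26%). Here long transcripts leaned lower, with Pearson's r of -0.59 and -0.39 and Spearman's rho of -0.45 and -0.27 over the 45 genes. Over 9275 genes with at least 100 UMIs Pearson's r was -0.41 and -0.33 and Spearman's rho -0.46 and -0.38, so the lean was not particular to the 45. Mki67 had -2.21 and -1.76 and Aspm -1.93 and -1.74, whereas Cks1b had 0.07 and -0.24 and Birc5 0.06 and -0.09. Its nuclear RNA list had a log2 ratio of -1.74 to non-cycling cells of the lineage, and that of the dividing nuclear-RNA-rich cells 0.64.

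The FLASH and standard libraries had nearly the same level of these genes. The cells called tumour-lineage here were 8074 FLASH and 6447 standard cells. They joined all cycling, progenitor-like, neuron-like and nuclear-RNA-rich classes with 958 FLASH and 654 standard cells that matched no named type. Not all of them had to show granule neuron markers. Over the tumour-lineage cells the 45 genes summed to 5895 CPM in the FLASH library and 5796 CPM in the standard library, a log2 ratio of 0.02 (0.02 to 0.03). In M-like cells it was 17986 and 17554 CPM, a ratio of 0.04 (0.02 to 0.05). The sign depended on the measure, and in M-like cells also on the processing. Counted as UMIs per cell the ratio was -0.08 in tumour-lineage cells and -0.13 in M-like cells. That count also carries the depth of the cells, with median UMIs of 5877.5 in FLASH and 6442 in standard tumour-lineage cells. In M-like cells these medians were 6633 and 7646. With the class mix held equal the ratio was 0.00055 in tumour-lineage cells. 0 of the 45 genes differed by 1.5 times or more in tumour-lineage cells, against 0.893% of the 12091 genes compared, and 0 did so in M-like cells, against 1.07%. In tumour-lineage cells 24 genes had a ratio above 0 and 21 below, and 50.4% of all genes compared lay above 0.

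The largest ratios in tumour-lineage cells were small. Ncapg2 had 49.8 CPM in the FLASH library and 41.9 CPM in the standard library, a ratio of 0.25 (0.16 to 0.33), Cdca3 had 85.4 and 78.5 CPM, or 0.12 (0.06 to 0.19), and Ect2 had 44.2 and 41.1 CPM, or 0.10 (0.01 to 0.19). On the other side Psrc1 had 29.4 and 32.3 CPM, or -0.14 (-0.24 to -0.03), Anln had 50.6 and 54.4 CPM, or -0.11 (-0.19 to -0.03), and Aurka had 48.1 and 50.8 CPM, or -0.08 (-0.16 to 0.0041). By role, chromosome structure genes had the highest ratio of sums, 0.08 (0.07 to 0.10), and the 6 other roles lay between -0.02 and 0.03. In M-like cells the 3 highest ratios shared Ncapg2 and Cdca3 with those above and the 3 lowest shared Psrc1, with Ncapg2 at 0.33 (-0.02 to 0.68), Cdca3 at 0.19 (0.08 to 0.31) and Mki67 at 0.17 (0.12 to 0.22) against Psrc1 at -0.20 (-0.36 to -0.04), Nuf2 at -0.11 (-0.29 to 0.06) and Gtse1 at -0.07 (-0.43 to 0.28). M-like cells are part of the tumour-lineage cells, so these lists share their UMIs.

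**Figure D5:**
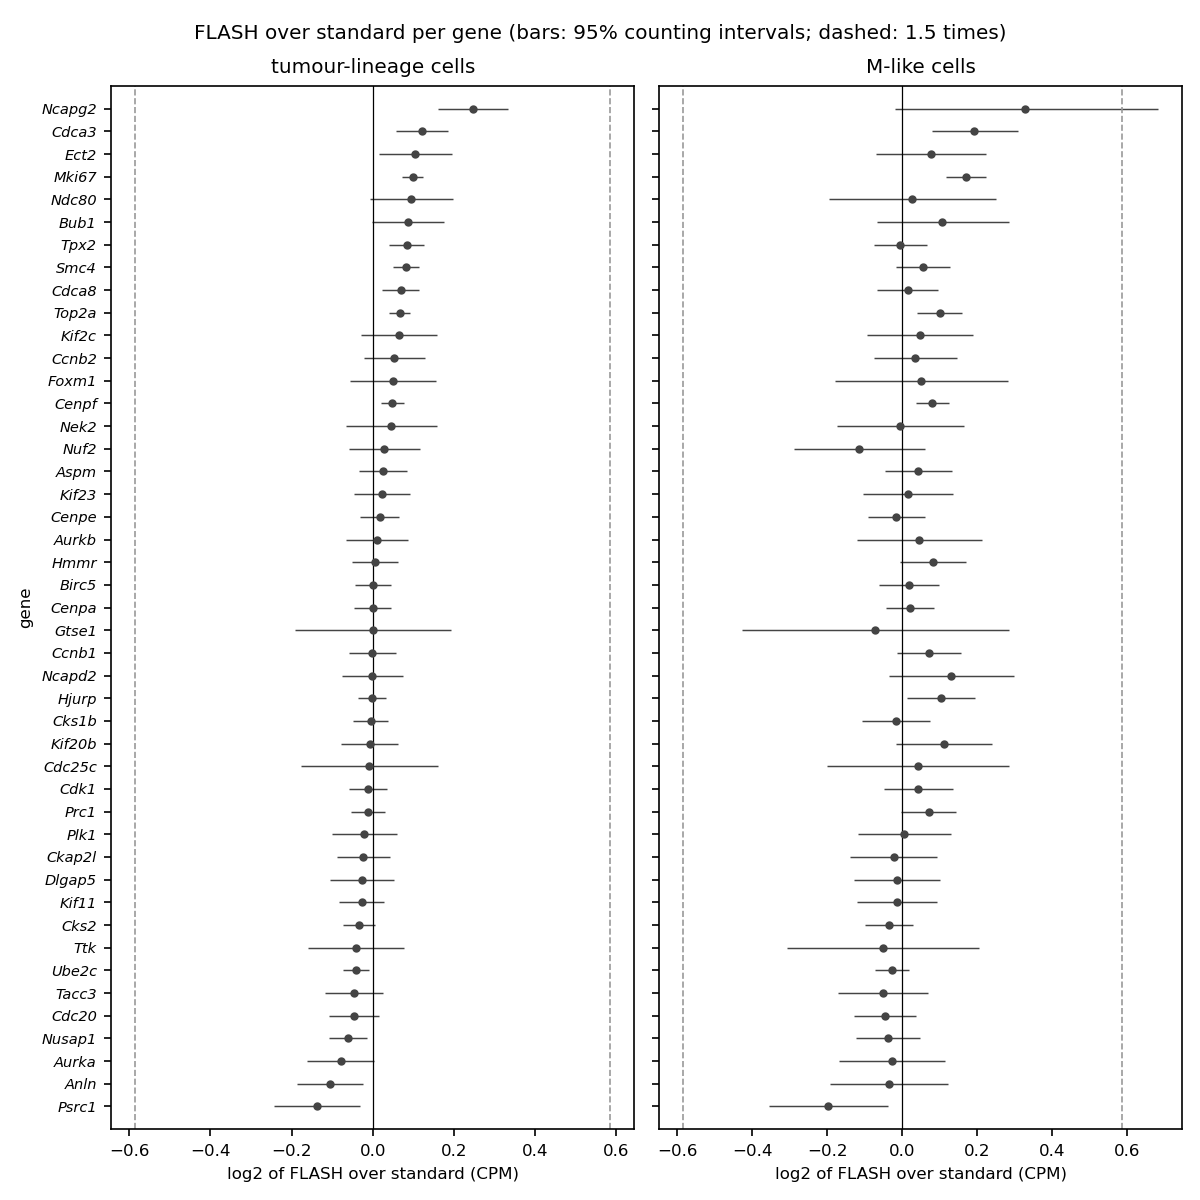
Log2 of FLASH over standard (horizontal axis) for each of the 45 genes (vertical axis) in tumour-lineage cells and in M-like cells, with 95% counting intervals as bars and dashed lines at 1.5 times. Every gene lies inside the dashed lines in both panels.

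The pattern across stages was also alike in both libraries. The M over early S ratios of the 45 genes in the FLASH and standard libraries had Pearson's r of 0.983 and Spearman's rho of 0.983, a median absolute difference of 0.14, and the same sign for 44 genes, and the M over G2 ratios had the same sign for 42. In cycling cells with neuronal genes the ratio of the sums was -0.13 (-0.16 to -0.11). There 38 of 45 genes lay below 0 and 7 above, while 52.3% of all genes compared lay above 0. In that cluster 46.0% of FLASH and 40.9% of standard cells had doublet scores above the mark. In neuron-like cells the ratio was -0.10 (-0.15 to -0.06), and in nuclear-RNA-rich cells 0.09 (0.04 to 0.13). G2-like cells had -0.03 (-0.05 to -0.02), opposite in sign to M-like cells. In them 28 genes lay below 0 and 17 above, while 55.8% of all genes compared lay above 0. The ratio was 0.01 (-0.03 to 0.05) in early S-like, 0.02 (0.004 to 0.04) in late S-like and 0.05 (0.01 to 0.09) in progenitor-like cells.

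Some of the 45 genes share their place with another gene. In GENCODE M21 the genes Tex52 and Gm44596 overlap Foxm1 on the same strand, and 9 other members, among them Cdc20, Ube2c, Prc1 and Nusap1, overlap a gene on the opposite strand. Whether the counting used strand is stated by none of the sources used here. It is thus not known here whether reads of the opposite-strand pairs were told apart, and no mixing of their counts was shown. Ube2c, at chr2:164769898-164778822 on mm10, shares 1662 bases with the muscle gene Tnnc2, which leads a progenitor-like cluster in these cells.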

How the data were processed

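The deposited matrices hold raw UMI counts per gene and barcode from 10x Genomics V3 libraries, aligned to mm10 by the authors, per the submitters' processing notes. The software was Cell Ranger 6.1.2, per the file headers. No source used here states whether counting used strand. The 45 genes, the marker lists and the other pathway lists were chosen with earlier results of these data known.

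Barcodes with at least 500 genes and at most 10% mitochondrial UMIs were kept. Counts were scaled to 10000 per cell, and 2000 variable genes without the 45 genes and the other pathway genes gave 30 principal components, 15 neighbours and Leiden clusters at resolution 1.0 (scanpy 1.11.5, leidenalg 0.10.2). Cycling cells were clustered again at 0.6 and nuclear-RNA-rich cells at 0.5, and the limits for naming and these further clusters were set after the data were seen. Summed counts per class gave CPM with exact Poisson intervals, Clopper-Pearson intervals for shares and exact binomial intervals for ratios (95%, SciPy 1.17.1). Comparisons across genes kept those with at least 100 UMIs. The code was tested on simulated data. Scrublet's automatic limit marked 0 cells in each library, so doublets stayed in, and an alternative removed the highest scores at 0.8% per 1000 cells.

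All 45 genes are named. By rule, values are given for the member with most UMIs of each of the 7 roles, for the 3 highest and 3 lowest ratios between stages and between libraries, for the 4 highest neuronal and nuclear ratios, and for the 2 highest other genes of each list. Further members were given to complete the roles. Transcript lengths came from GENCODE M21, which matched 30934 features.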

Additional observations from a re-analysis of the deposited data

Results flagged for a closer look

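For 3 genes the M over G2 log2 ratio had opposite signs in the libraries. It was 0.079 in the FLASH library and -0.14 in the standard library for Cdca3, 0.091 and -0.047 for Birc5, and 0.12 and -0.0025 for Kif20b. Hjurp had an M over early S ratio of 0.16 in the FLASH library and -0.039 in the standard library. With 1 library each, these differences were not tested.

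The 45 genes were also present in barcodes outside the comparisons of stages. Barcodes with fewer than 500 genes had 2805 CPM of them in the FLASH library and 3118 CPM in the standard library, and the unnamed shallow cluster with cycling genes had 9859 and 10066 CPM.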

How the results depend on the processing

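The number of genes highest in M-like cells of both libraries was 25, and it became 44 without probable doublets, 44 with at most 5% mitochondrial UMIs and 41 with the deeper M-like cells alone, an alternative chosen after seeing the data. The neuronal level, 4.56% of the M-like level over both libraries, was 2.50% without doublets, 3.49% with at most 5% mitochondrial UMIs, 4.79% with at least 1000 genes, 3.97% at resolution 2.0, 3.06% with the 45 genes left in the clustering, 5.63% with stages from scores per cell, 4.81% with thinned cells, 4.88% as a mean over cells, 4.23% with the 5 highest cells of each gene left out, and 3.36% against deeper M-like cells. The nuclear-RNA-rich level, 44.0%, was 28.8%, 46.3%, 48.4%, 31.2%, 42.9%, 50.3%, 39.6% and 32.4% without doublets, with at least 1000 genes, at resolution 2.0, with the 45 genes left in, with scores, thinned, without the 5 cells and against deeper cells. No such class formed with at most 5% mitochondrial UMIs. Settings that changed the cells kept, the resolution or the genes used made new clusters, so their M-like class held other cells.

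The FLASH over standard log2 ratio of the sums in tumour-lineage cells, 0.02, was 0.039 without doublets, 0.062 with at most 5% mitochondrial UMIs, 0.00055 with an equal mix of classes and -0.076 per cell. In M-like cells, where it was 0.04, it was 0.016 without doublets, -0.0094 with at most 5% mitochondrial UMIs, 0.0091 with at least 1000 genes, 0.021 at resolution 2.0, 0.0196 with the 45 genes left in, -0.0029 with scores and -0.13 per cell. The values per cell also carry the depth of the cells, which was lower at the median in the FLASH library. The cause of the other shifts was not tested. In all 11 alternatives 0 genes differed by 1.5 times between libraries in tumour-lineage cells, and the narrower promoter window held a CHR word in 28 genes. No paired analysis was possible because each group has 1 library and no test was run. Depth limits the nuclear-RNA-rich and shallow classes most, with medians of 2060.5 and 1764 UMIs per cell in the FLASH library.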
